A study of Mus musculus with 6 samples.

Results

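The p53 response was examined through 32 genes, namely Trp53 itself, its 3 direct regulators Mdm2, Mdm4 and Ppm1d, and 28 genes known as p53 targets or partners in cell cycle arrest, cell death, DNA repair and metabolism. The rule names them by gene symbol and uses no measured value. A probeset annotated to a single gene symbol was found for 31 of the 32, 1 probeset for each, and Trp53 was not analysed here. Of the 31, 27 passed a filter that left out the dimmest 25% of probesets by average signal (mean log2 intensity of 5.152 or less), and these are the members tested, among 14994 genes in all.

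The RNA came from KSL SLAM cells of mouse bone marrow, a small fraction enriched for haematopoietic stem cells and sorted as lineage-negative, c-Kit+, Sca-1+, CD150+, CD48- and CD41-. The mice had received G-CSF (granulocyte colony-stimulating factor, 125 mcg/kg in 2 subcutaneous injections per day), the cytokine that drives neutrophil production and mobilizes stem cells, or PBS alone, in both cases for 7 days. Each group had 3 MoGene 1.0 ST arrays, and each array carried amplified RNA of an independent pool of 5 to 10 mice. The sources used here give no strain, age or sex of the mice, and no genotype is named for either group.

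p53 is a transcription factor that cells hold at a low level and stabilise after DNA damage or other stress. MDM2, itself a p53 target, marks p53 for degradation, which closes a feedback loop, and the other targets stop the cell cycle, repair DNA or kill the cell. In blood stem cells p53 is known for keeping cells quiescent and for deciding how they respond to damage. Since p53 is controlled mainly at the protein level, its activity is commonly read from the transcripts of its targets.

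p53 binds DNA through pairs of a 10-base consensus, the p53 decamer, which is its own reverse complement. RefSeq promoter windows (GRCm38.p6, 250 bases before to 50 after a start site) were found for 25 of the 32 genes, some with more than 1 start, which gave 30 windows. The decamer occurred in 11 of these 30 windows (36.7%), against 8.4% of all 32851 windows, and they belonged to 10 genes. No member window held more than 1 match, so a pair of exact matches was found in none of them. The members were named as p53 targets in the first place, so the higher share describes the list. The 250 bases before the start are shown for Mdm2, the feedback gene, and for the 4 members that differed most clearly between the groups, with any decamer in capitals and the rest in lower case.
Mdm2, chr10:117710759-117711008, - strand: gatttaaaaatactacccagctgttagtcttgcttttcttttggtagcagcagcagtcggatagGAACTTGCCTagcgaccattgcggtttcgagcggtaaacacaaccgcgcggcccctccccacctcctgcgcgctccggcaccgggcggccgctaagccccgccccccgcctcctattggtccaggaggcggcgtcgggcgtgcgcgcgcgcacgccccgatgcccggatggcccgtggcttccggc
Ei24, chr9:36797335-36797584, - strand: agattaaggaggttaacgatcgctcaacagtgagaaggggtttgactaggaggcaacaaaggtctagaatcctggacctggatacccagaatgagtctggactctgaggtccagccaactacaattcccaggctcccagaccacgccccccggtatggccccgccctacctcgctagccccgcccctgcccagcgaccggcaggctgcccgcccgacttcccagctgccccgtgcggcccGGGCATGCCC
Sesn1, chr10:41887189-41887438, + strand: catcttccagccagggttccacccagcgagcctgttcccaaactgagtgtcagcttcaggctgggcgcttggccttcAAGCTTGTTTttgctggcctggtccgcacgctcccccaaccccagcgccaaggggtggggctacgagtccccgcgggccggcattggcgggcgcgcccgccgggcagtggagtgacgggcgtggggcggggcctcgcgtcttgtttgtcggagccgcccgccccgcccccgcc
Plk2, chr13:110394794-110395043, + strand: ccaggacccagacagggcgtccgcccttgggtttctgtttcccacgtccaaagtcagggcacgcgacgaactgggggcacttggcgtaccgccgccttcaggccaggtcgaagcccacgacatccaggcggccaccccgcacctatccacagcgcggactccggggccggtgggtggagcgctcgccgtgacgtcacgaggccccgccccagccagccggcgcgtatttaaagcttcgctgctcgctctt
Gadd45b, chr10:80929841-80930090, + strand: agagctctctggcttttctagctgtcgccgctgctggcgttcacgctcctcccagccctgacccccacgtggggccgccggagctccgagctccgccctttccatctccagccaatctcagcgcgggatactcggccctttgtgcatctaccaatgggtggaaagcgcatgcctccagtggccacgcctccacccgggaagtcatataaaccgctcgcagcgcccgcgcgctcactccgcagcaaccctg
The window of Mdm2 held the decamer 186 bases before the start, and that of Ei24 held it 10 bases before the start. Sesn1 has a second start whose window held no match, and the match shown lay 173 bases before its start. In the windows of Plk2 and Gadd45b these letters were not found, which says nothing of sites elsewhere in the genes. A match is a description of the sequence and no measurement of binding. Of the tested members, 9 had a window with the decamer and 12 had windows without it, and the median log2 differences (G-CSF minus PBS) were -0.14 and 0.05. The differences of the 2 sets overlapped widely, from -1.48 to 0.28 and from -1.14 to 0.68. At an unadjusted limma p under 0.05 there were 2 of the 9 and 2 of the 12, against 6.04% of all genes tested. Plk2 is 1 of the 2 without the decamer and gives the value of -1.14. It passed the filter only because of its PBS values, so these counts are not read as a result about the decamer.

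The comparison asked whether p53 target transcripts in this fraction differ between mice given G-CSF and mice given PBS. None of the 27 tested members passed limma at an adjusted p under 0.05, a threshold that 0.0267% of all genes passed (4 genes, all higher). The smallest adjusted p among the members was 0.258, for Plk2. At an unadjusted limma p under 0.05 there were 4 members (14.8%), against 6.04% of all genes. Of these, 3 were lower with G-CSF (Plk2, Sesn1 and Ei24; background 3.3% of all genes) and 1 was higher (Gadd45b; background 2.73%). Without PBS replicate 2 or without G-CSF replicate 1 the count was 2 (7.41%, against 5.48% and 5.72% of all genes). Without PBS replicate 1 it was 5 (18.5%, against 6.88%). Groups did not overlap in 4 members (14.8%), against 10.8% of all genes. These were Plk2, Sesn1 and Perp, lower with G-CSF (background 5.05%), and Gadd45b, higher (background 5.77%). Both counts of 4 include Plk2, which passed the filter only because of its PBS values, so neither is read as a result about the members.

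The median log2 difference of the members was -0.003, beside 0.002 over all genes tested, and the mean was -0.11, beside -0.012, with 12 positive and 15 negative differences between -1.48 and 0.68. The median size of a difference, whatever its sign, was 0.21 for the members and 0.16 for all genes. Differences above 0.5 in size were found in 6 members (22.2%), against 10.3% of all genes, and 5 of the 6 belonged to the arrest group. Plk2, tested only because of its PBS values, is among the 5 and in the arrest median given next. By function the medians were -0.40 for arrest (9 tested), 0.07 for death (8), -0.11 for repair (5), 0.03 for metabolism (2) and -0.002 for the 3 p53 regulators. With single arrays left out the repair median ran from -0.185 to 0.056 and the metabolic one from -0.053 to 0.115, so these have no settled sign, and that of the regulators was 0.17 without G-CSF replicate 1. The plot of differences shows how far each interval reaches.

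**Figure D1:**
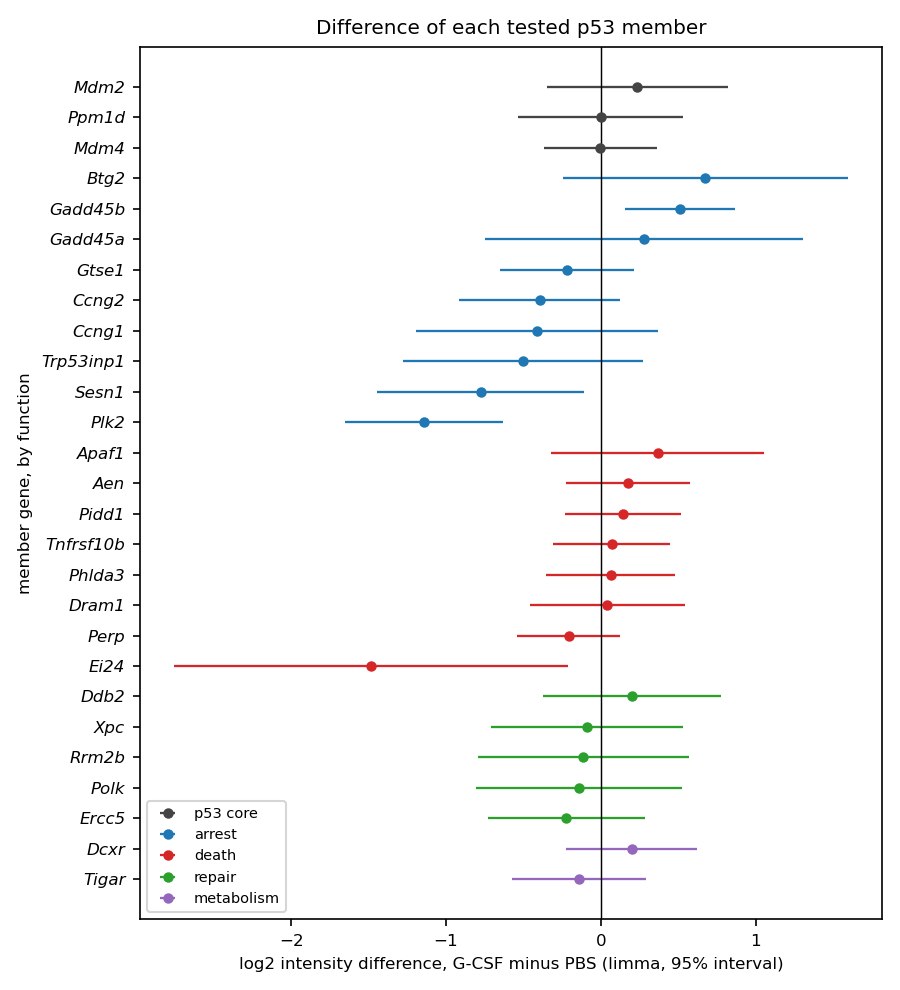
Log2 intensity difference, G-CSF minus PBS (x axis), of the 27 tested members (y axis), coloured by function; points are limma estimates and lines their 95% intervals. The intervals of Plk2, Sesn1, Ei24 and Gadd45b do not reach 0, with no adjustment for the number of genes, and those of the other 23 members do.

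The regulators of p53 did not separate the groups. Mdm2 was at 7.91, 8.03 and 7.6 (log2 intensity) in the PBS arrays and at 8.04, 8.53 and 7.67 in the G-CSF arrays. The values overlapped, and replicate 3 was the lowest of each group. The difference was 0.23 (SE 0.25, 95% interval -0.35 to 0.82, limma adjusted p = 0.967), so the interval allows Mdm2 to be lower, or up to 1.76-fold higher. Leaving out PBS replicate 3 gave 0.11, leaving out G-CSF replicate 2 gave 0.01, and 0.44 was the value when G-CSF replicate 3 was left out. Mdm4, the MDM2 relative that binds p53 and blocks its activity, was at 8.59, 8.75 and 8.43 with PBS and at 8.63, 8.63 and 8.50 with G-CSF. Its difference was -0.003 (interval -0.37 to 0.36). Ppm1d, a phosphatase that switches off p53 and ATM signalling, was at 6.71, 6.91 and 7.29 with PBS and at 6.62, 7.12 and 7.16 with G-CSF. The ranges overlapped over most of their length, and the difference was -0.002 (interval -0.54 to 0.53). The signs of the Mdm4 and Ppm1d differences turned with quantile normalization again, and a direction is not given for either gene.

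Of the 9 arrest genes tested, 6 had negative and 3 had positive differences. Plk2, a polo-like kinase that acts in centriole duplication and stress checkpoints, was at 5.57, 6.25 and 6.06 with PBS and at 4.61, 4.86 and 4.98 with G-CSF. Every G-CSF value was below the lowest PBS value. The difference was -1.14 (SE 0.22, limma unadjusted p = 0.00104, adjusted p = 0.258), which puts the G-CSF mean at 45.3% of the PBS mean. The 3 G-CSF arrays lay under the filter's limit, so Plk2 was tested only because of its PBS values, and with arrays raised to that limit the difference was -0.81. Sesn1 encodes sestrin 1, which restrains growth signalling through mTORC1. It was at 8.58, 8.58 and 8.79 with PBS and at 7.25, 8.35 and 8.03 with G-CSF, again with no overlap. The difference was -0.78 (SE 0.28, limma unadjusted p = 0.0285, adjusted p = 0.749). G-CSF replicate 1 was the lowest by far, and without it the difference was -0.46.

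Gadd45b was the arrest gene whose G-CSF arrays all lay above the PBS arrays. It encodes a stress protein that activates p38 and JNK signalling. The PBS arrays were nearly identical at 5.69, 5.69 and 5.66, and the G-CSF arrays were at 6.12, 6.37 and 6.09. The difference was 0.51 (SE 0.15, limma unadjusted p = 0.0109, adjusted p = 0.549), a ratio of 1.43. Its relative Gadd45a did not separate the groups, at 7.25, 8.34 and 6.86 with PBS and at 7.43, 8.45 and 7.41 with G-CSF. In both groups replicate 2 stood more than 1 log2 unit above the others, and the difference of 0.28 had an SE of 0.44.

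Other arrest genes differed by less than, or about as much as, their arrays varied within a group. Btg2, an antiproliferative protein that promotes mRNA deadenylation, was at 7.92, 6.77 and 6.58 with PBS and at 8.09, 7.97 and 7.25 with G-CSF. PBS replicate 1 was as high as the G-CSF arrays, and the difference of 0.68 had an interval of -0.25 to 1.6. Trp53inp1, a stress-induced cofactor that raises p53 phosphorylation, differed by -0.50 (SE 0.33), with PBS arrays at 7.29, 7.14 and 8.17 and G-CSF arrays at 6.81, 6.77 and 7.52. Cyclin G1 (Ccng1), a feedback partner of MDM2, differed by -0.41 (SE 0.33), and cyclin G2 (Ccng2), an atypical cyclin of arrested cells, by -0.40 (SE 0.22). In Ccng1 the PBS arrays alone spanned 8.34 to 9.40. Gtse1, a microtubule-binding protein of G2 phase that moves p53 out of the nucleus, differed by -0.22 (SE 0.18).

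**Figure D2:**
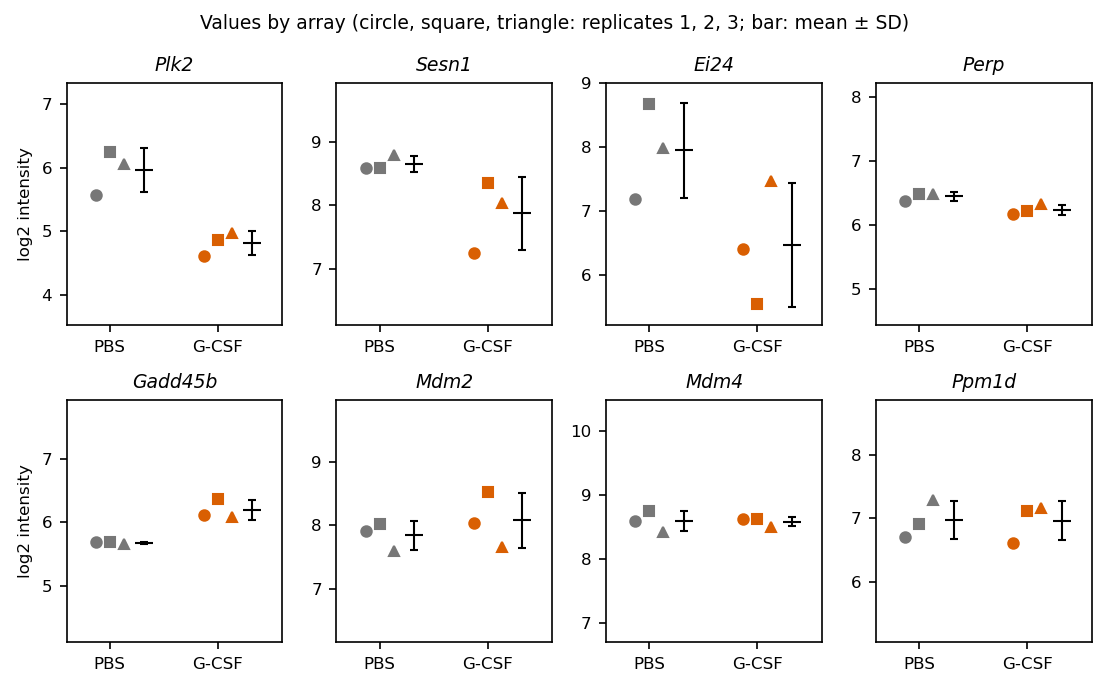
Log2 intensity (y axis, same span of 3.8 units in each panel, not starting at 0) of 8 members in the PBS and G-CSF arrays (x axis); markers are single arrays by replicate number and bars the mean ± SD (n = 3). G-CSF arrays lie below all PBS arrays for Plk2, Sesn1 and Perp and above them for Gadd45b, while Ei24 and the regulators Mdm2, Mdm4 and Ppm1d overlap.

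Among the death genes the differences were small, with 1 exception. Ei24, which encodes an endoplasmic reticulum protein of autophagy and apoptosis, was at 7.19, 8.68 and 7.99 with PBS and at 6.40, 5.53 and 7.47 with G-CSF. G-CSF replicate 3 lay above PBS replicate 1, so the groups overlapped. The difference was -1.48 (SE 0.54, limma unadjusted p = 0.0283, adjusted p = 0.749), and only 1.88% of all genes had a larger residual SD. Leaving out single arrays moved it from -1.02 (without G-CSF replicate 2) to -1.99 (without G-CSF replicate 3). Perp, a membrane protein of desmosomes that p53 induces in apoptosis, was at 6.37, 6.48 and 6.48 with PBS and at 6.17, 6.22 and 6.32 with G-CSF. Perp separated the groups by a narrow margin, and its difference of -0.21 (SE 0.14) had a limma unadjusted p of 0.186.

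The other 6 tested death genes had positive differences between 0.04 and 0.37, each with an interval that included 0. Apaf1, the scaffold of the apoptosome that activates caspase 9, was the highest of them at 0.37 (SE 0.29), with PBS arrays at 7.09, 6.62 and 7.12 and G-CSF arrays at 7.57, 6.69 and 7.67. Replicate 2 was its lowest array in each group. Aen, an apoptosis-enhancing nuclease, differed by 0.18 (SE 0.17) and Pidd1, which assembles the caspase 2 platform, by 0.14 (SE 0.16). For the death receptor gene Tnfrsf10b the difference was 0.07, for the Akt repressor gene Phlda3 it was 0.06 and for the lysosomal autophagy gene Dram1 it was 0.04. The intervals of Phlda3 and Tnfrsf10b stayed within 0.5 log2 units of 0, a ratio of 1.41.

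The repair genes did not separate the groups in any case. Of the 5, 4 had negative differences and 1 a positive one, from -0.22 (Ercc5, the XPG endonuclease of nucleotide excision repair) to 0.20 (Ddb2, which recognises ultraviolet damage). Ercc5 was at 7.45, 7.07 and 6.82 with PBS and at 6.71, 7.15 and 6.81 with G-CSF. Ddb2 was at 6.59, 6.72 and 6.82 with PBS and at 6.59, 7.44 and 6.71 with G-CSF, so its higher mean came from G-CSF replicate 2. Xpc, which finds damaged bases for excision repair, also had that array as its highest, at 7.51. The differences were -0.09 for Xpc, -0.14 for Polk (the translesion polymerase kappa) and -0.11 for Rrm2b (the p53-inducible subunit of ribonucleotide reductase). Taking the 5 intervals together, the bounds furthest from 0 were -0.81 and 0.78, so a change beyond 1.75-fold lies outside the interval of each repair gene.

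In the metabolic pair, Dcxr, a reductase of sugars and dicarbonyls, was at 7.00, 6.64 and 6.72 with PBS and at 7.05, 7.15 and 6.76 with G-CSF. The difference was 0.20 (SE 0.18). Tigar, a phosphatase that lowers glycolytic flux, differed by -0.14 (SE 0.18). The groups overlapped in both genes.

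The remaining 4 members lay under the filter's limit and were fitted only with no filter on dim probesets. Fas, the CD95 death receptor gene, was at 4.25 ± 0.39 with PBS and at 4.62 ± 0.53 with G-CSF (mean log2 intensity ± SD, n = 3 per group). Eda2r, a receptor of the TNF family, was at 4.29 ± 0.12 and 4.47 ± 0.32. Plk3, a stress-responsive polo-like kinase, was at 4.99 ± 0.12 and 4.99 ± 0.52, and Zmat3, an RNA-binding zinc finger protein, at 5.00 ± 0.03 and 4.93 ± 0.04. All 4 overlapped between the groups, with limma unadjusted p from 0.261 to 0.982 in that fit. A dim probeset can hide a change, and at this signal none was detectable in these genes.

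**Figure D3:**
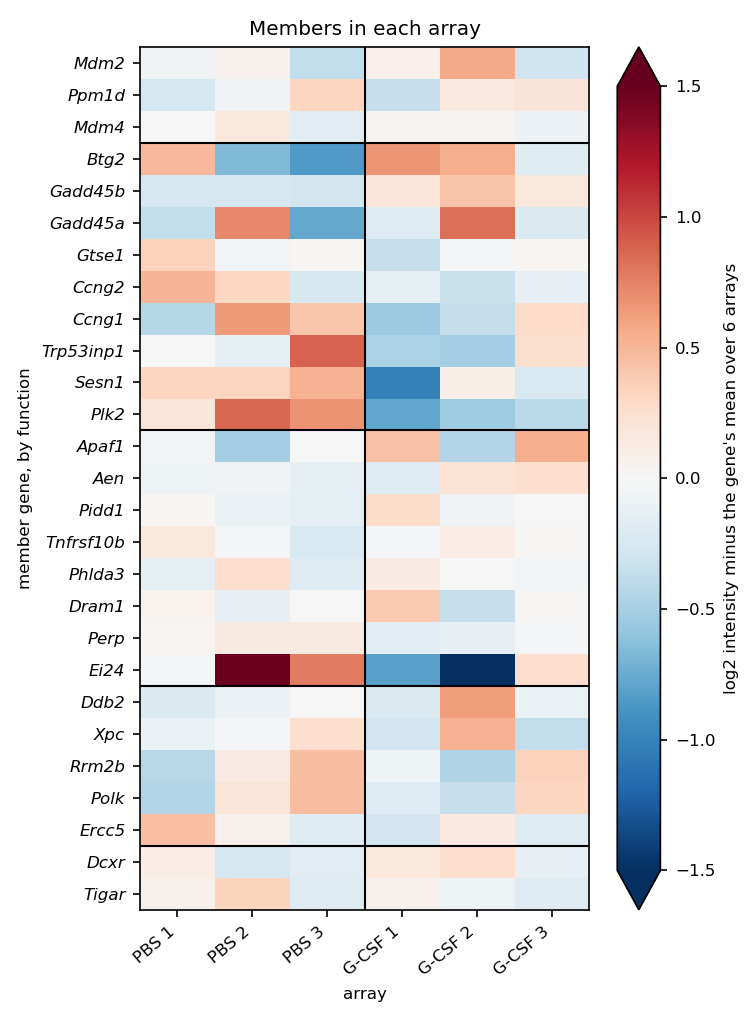
Log2 intensity of each tested member (rows, grouped by function) minus its own mean over the 6 arrays (colour, from -1.5 to 1.5), in each array (columns). Plk2 and Sesn1 are lower and Gadd45b is higher in all 3 G-CSF arrays, while Ei24, Gadd45a and Btg2 vary most among the arrays of a group.

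Members varied within groups somewhat more than other genes. The residual SD (log2 scale) had a median of 0.29 over the members and 0.26 over all genes, and 17 of the 27 lay above the all-gene median. Ei24 (0.87), Gadd45a (0.68) and Btg2 (0.61) varied most, and Perp (0.07), Gadd45b (0.11) and Mdm4 (0.12) varied least. Among the PBS arrays, replicate 3 was the lowest in 12 members, replicate 1 in 9 and replicate 2 in 6. Among the G-CSF arrays, replicate 3 was the lowest in 9, replicate 1 in 10 and replicate 2 in 8. The map of members by array shows these columns. For 19 of the 27 members the 95% interval lay within 1 log2 unit of 0, so a 2-fold change in either direction was outside it. The other 8 members, 6 of them arrest genes, allow a change of that size.

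Genes that act above p53 or beside the members were counted from 2 further lists. Of 20 other p53 targets, 15 had a probeset with a single symbol and all 15 were tested; the others, Cdkn1a and Bax among them, are not analysed here. None passed limma at an adjusted p under 0.05, and 1 (6.67%) had an unadjusted p under 0.05, against 6.04% of all genes. Groups did not overlap in 1 (6.67%), against 10.8% of all genes. There were 4 positive and 11 negative differences (median -0.12). Ephx1, the microsomal epoxide hydrolase gene, was at 5.73, 6.40 and 5.59 with PBS and at 5.09, 4.96 and 5.20 with G-CSF, with no overlap. It differed by -0.82 (SE 0.24, limma unadjusted p = 0.00976, adjusted p = 0.523), and 2 of its 3 G-CSF arrays lay under the filter's limit. Its G-CSF mean of 5.085 was also under the limit, so Ephx1 was tested only because of its PBS values. With arrays raised to that limit the difference was -0.74. Ephx1 is the gene in both counts of 1, so neither is read as a result about these targets. The next by p were Triap1 (-0.50, SE 0.31), Ptprv (0.25, SE 0.18) and Lif (0.28, SE 0.24). The apoptosis genes Bbc3 (PUMA) and Pmaip1 (NOXA) differed by -0.14 and -0.12.

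Of the 19 genes upstream of p53, none passed at an adjusted p under 0.05, and 9 had positive and 10 had negative differences. An unadjusted limma p under 0.05 was found for 2 (10.5%), against 6.04% of all genes. Groups did not overlap in 3 (15.8%), namely Usp7, Pml and Crebbp, against 10.8% of all genes. Usp7, the deubiquitinase that stabilises both MDM2 and p53, was at 8.53, 8.77 and 8.96 with PBS and at 9.14, 9.30 and 9.15 with G-CSF. Every G-CSF value was above the highest PBS value, and the difference was 0.45 (SE 0.17, limma adjusted p = 0.761). Pml, the nuclear body protein that activates p53, was at 6.77, 7.04 and 6.94 with PBS and at 6.71, 6.30 and 6.49 with G-CSF, also with no overlap. Its difference was -0.42 (SE 0.17, adjusted p = 0.803). Cdkn2a, the locus of the p53-stabilising protein ARF, differed by 0.27 (SE 0.16) and Crebbp, a p53 acetylase, by -0.25 (SE 0.15). The damage kinases Atm and Atr differed by -0.07 and -0.25.

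Markers of neutrophils, their progenitors and dividing cells were higher in the G-CSF arrays. Of 18 neutrophil markers tested, 17 lay higher in all G-CSF arrays (array means 7.52 to 8.22 with PBS and 9.57 to 10.18 with G-CSF). Of 14 granulocyte-monocyte progenitor markers, 12 did (6.74 to 7.03 and 7.77 to 8.49), and so did 9 of 23 G2/M genes (6.0 to 6.35 and 6.65 to 6.70). Over all genes tested, 5.77% lay higher in all G-CSF arrays. The neutrophil markers Stfa2 and Stfa3 and the G2/M gene Bub1 had PBS means under the filter's limit (4.67, 4.55 and 4.805). They were tested only through their G-CSF values, and these counts and array means include them. All 17 stem cell markers measured were above the filter's limit in their mean, 15 of them had negative differences, and their array means were 7.78 to 7.96 with PBS and 7.25 to 7.62 with G-CSF. The sort marker Kit was at 10.28, 9.92 and 9.85 with PBS and at 9.28, 9.21 and 8.63 with G-CSF, while Slamf1 (CD150) overlapped. Megakaryocyte markers had negative differences in 9 of 10, erythroid in 3 of 5 and lymphoid in 4 of 6. Of all genes tested, 49.67% had negative differences. The array means of the neutrophil, progenitor, G2/M, stem cell and megakaryocyte lists differed between the same groups as Plk2, Sesn1 and Gadd45b. The part of these lists in the differences of those genes was not tested. In such pooled RNA, fewer cells of a type and less RNA per cell cannot be told apart. The array means of the 27 members were 6.86 to 6.98 with PBS and 6.72 to 6.86 with G-CSF, and those of the 9 arrest genes 7.06 to 7.20 and 6.72 to 7.03. The gap between the arrest means is narrow, and they include Plk2, which was tested only through its PBS values. A separation of the arrest genes as a list is therefore not read from them.

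**Figure D4:**
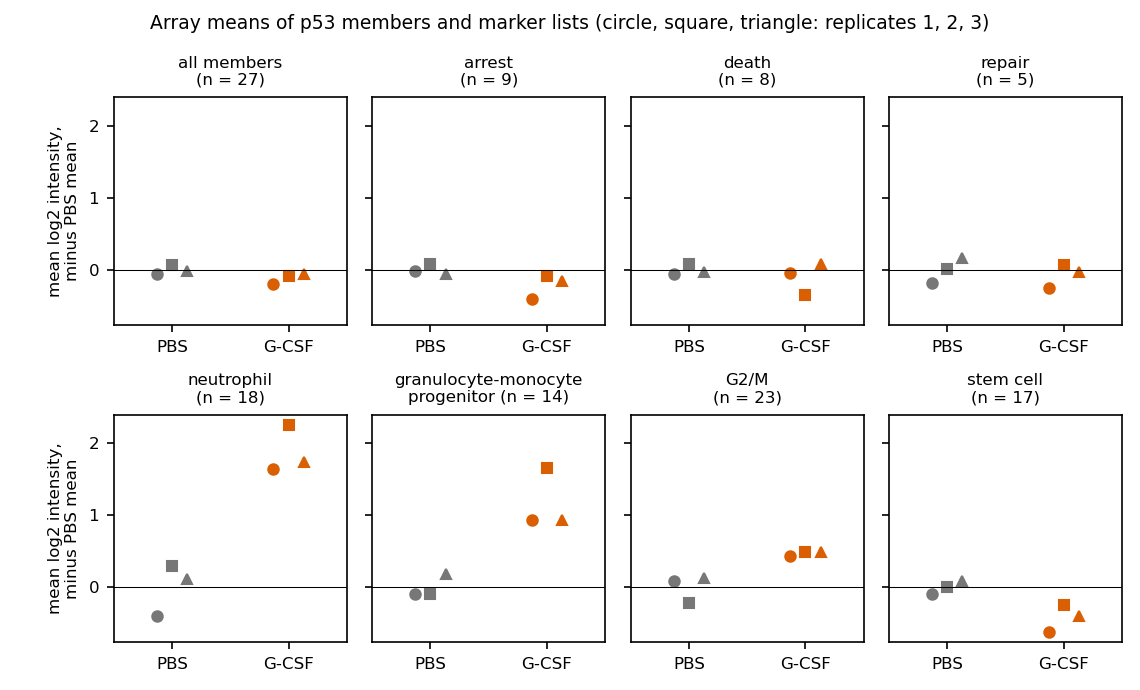
Mean log2 intensity of each list in each array, minus the mean of the PBS arrays (y axis, same scale in all panels), for PBS and G-CSF arrays (x axis), with markers by replicate number and the number of genes in each title. Neutrophil, progenitor and G2/M lists lie higher in all G-CSF arrays, the stem cell list lies lower, and the death and repair lists overlap. The neutrophil mean includes Stfa2 and Stfa3 and the G2/M mean includes Bub1, which were tested only through their G-CSF values. The arrest list lies lower by a narrow margin, and its mean includes Plk2, which was tested only through its PBS values.

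Arrays had median intensities from 56.2 to 61.7. Their pairwise rank correlations (Spearman) ran from 0.861 to 0.895 inside a group and from 0.836 to 0.892 across groups. With 3 arrays a group, precision is limited by their number.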

How the data were processed

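Values came from the series' value table. Per the submitters' processing notes the authors processed the arrays with RMA, and the deposited values are intensities on a linear scale (2.70 to 19069). The sources used here do not name its software, its version or the arrays processed together. Log2 was taken first. Of 35554 probesets, 21789 had 1 gene symbol in the platform annotation, 1621 had several and 12144 were unlisted. Only those with 1 symbol were used. The dimmest 25% by mean were left out, and the brightest probeset stood for each gene. Groups were compared with limma 3.58.1 in R 4.3.3 (lmFit, eBayes, no covariate), two-sided, with Benjamini-Hochberg adjustment over 14994 genes. Members, lists and tests were chosen with earlier results of these data known. Array values are given for the p53 regulators, for members at an unadjusted p under 0.05 or without overlap, and for the widest difference of each function. Those of Btg2, Trp53inp1, Gadd45a, Apaf1 and Ddb2, and the differences of Bbc3, Pmaip1, Atm and Atr, were added after they were seen, and up to 4 genes by smallest p come from each further list. On simulated arrays with known changes (5 runs) the fit recovered 42% of genes changed by 1 log2 unit and 76% changed by 2. It made 9.2 false calls per run on average. In the data themselves 0 of the 18 neutrophil markers tested passed, though their median difference was 1.76. The simulated shares therefore do not give the power for these arrays. Alternatives were the filter, normalization, variance model, array weights, probeset rule, replicate block and leaving out each array. Figures were drawn with matplotlib 3.10.9.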

Additional observations from a re-analysis of the deposited data

How the results depend on the processing

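No member passed at a limma adjusted p under 0.05 in any of the 14 alternatives, and the count of lower genes stayed at 0 in all of them. The count of higher genes was 12 with quantile normalization again and 2 with arrays centred on the median, and ran from 0 to 6 when single arrays were left out. With the dimmest 50% of probesets left out, 2 of 22 members (9.09%) had an unadjusted p under 0.05, against 6.7% of all genes, and 2 did not overlap, against 11.3%, since Plk2 and Gadd45b were then not tested. Leaving out single arrays gave 2 to 5 members at that p, against 5.33% to 6.88% of all genes. It gave 5 to 10 without overlap, against 19.4% to 22.4% of all genes, as fewer arrays separate more easily. The members' median stayed between -0.06 and 0.04, and the arrest median between -0.43 and -0.24. Leaving out single arrays moved the median of the p53 regulators from -0.026 to 0.17 and of death genes from 0.019 to 0.123, and the repair and metabolic medians changed sign. The unadjusted p was under 0.05 for Gadd45b in 13 of 13 alternatives that tested it (0.42 to 0.57), for Sesn1 in 10 of 14 and for Ei24 in 9 of 14. Plk2, tested only through its PBS values, ran from -1.33 to -0.998, beside -0.81 with arrays raised to the limit. Quantile normalization again turned Mdm4 to 0.062 and Ppm1d to 0.028, and array weights turned Ppm1d to 0.035. With single arrays left out Mdm4 ran from -0.081 to 0.077 and Ppm1d from -0.134 to 0.17. The cause was not tested for these changes. The median difference of all genes was 0.004 with quantile normalization again and -0.01 with centred arrays. With the replicate number as a block, 6 members (22.2%, against 8.07% of all genes in that fit) had an unadjusted p under 0.05, 0 passed, and 5 genes were higher. Same-numbered arrays deviated together with correlations of 0.29, 0.02 and 0.19. G-CSF replicate 2 correlated best with PBS replicate 3, and every other array correlated best with its own number. Whether the numbers mark pairs is not known, and the main fit did not use them. The signal limits what dim members such as Fas, Eda2r, Plk3 and Zmat3 can show.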
